A study of Homo sapiens with 24 samples.

Results

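The POU3F genes encode the class III POU transcription factors, and this report follows the counts under POU3F1, POU3F2, POU3F3 and POU3F4 together with ENSG00000279437, the feature annotated on the strand opposite POU3F4. The members are the 5 rows carrying those names out of 61248 features in the count table of every library. The rule selects rows by name. The libraries come from H7, a human embryonic stem cell line, in 2 control lines and 2 lines in which BRAT1 was knocked out, each sampled as stem cells on day 0 and after ventral neural differentiation on day 14, with 3 biological replicates labelled A, B and C. That gives 24 libraries in 4 groups of 6: day 0 control, day 0 knockout, day 14 control and day 14 knockout. All groups share the parental H7 background, and each genotype rests on 2 lines. BRAT1 is a cytoplasmic partner of the Integrator complex, which cleaves nascent transcripts, and the series title places the work on cytoplasmic factors that Integrator and the cleavage and polyadenylation machinery need.

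POU3F factors bind octamer-like DNA through a POU-specific domain and a POU homeodomain, and they often act together with SOX proteins. They appear early in the neural lineage. POU3F1, also called OCT6 or SCIP, is known for promoting myelination by Schwann cells and for early neural commitment. POU3F2 (BRN2) drives neurogenesis and hypothalamic neuron identity, POU3F3 (BRN1) works alongside it in the cortex, and POU3F4 (BRN4) is needed in the inner ear and is active in the developing ventral forebrain.

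All 5 members are single-exon features in GENCODE 29 on GRCh38. POU3F1 (ENSG00000185668) lies on the minus strand of chromosome 1 from 38044611 to 38046794, and POU3F2 (ENSG00000184486) on the plus strand of chromosome 6 from 98834592 to 98839470. POU3F3 (ENSG00000198914) lies on the plus strand of chromosome 2 from 104855511 to 104858574. POU3F4 (ENSG00000196767) runs on the plus strand of chromosome X from 83508261 to 83512127. ENSG00000279437, a transcript annotated as still to be experimentally verified, runs on the minus strand of the same chromosome from 83506023 to 83509214. The pair on chromosome X overlaps over 954 bp, which is 24.7% of POU3F4 and 29.9% of ENSG00000279437, and the overlap holds 890 of the 1083 coding bases of POU3F4. ENSG00000279437 extends a further 2238 bp beyond the start of POU3F4, so that the POU3F4 promoter lies inside it.

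The strand of these annotations matters for reading every value here. At many loci of these libraries the counts sit under the feature opposite the coding gene, and over 407 other such pairs the day 14 counts under the coding gene were 1.65% ± 0.21 (SD, n = 6) of those under the opposite feature in control libraries and 2.39% ± 0.532 (n = 6) in knockout libraries. That difference of 0.739 percentage points had a two-sided exact permutation p of 0.00866. The test took libraries as separate replicates, though only 2 lines stand behind a genotype. The ranges overlapped, at 1.28% to 1.90% in controls and 1.79% to 3.01% in knockouts. These pairs had been limited to those with at most 10% of counts under the coding gene. Reads under ENSG00000279437 can therefore be POU3F4 RNA or RNA of the opposite strand, and reads under POU3F1, POU3F2 and POU3F3, which have no feature opposite them, can be antisense RNA or reads of the gene's own RNA that reached the other strand. The tables hold no read positions, so these cannot be told apart, and "counts under a name" is used throughout.

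The 250 bases before the RefSeq start of the 4 POU3F genes (GRCh38.p14) are shown because the promoters of this family share a feature that the rule did not use, repeated CCAAT boxes. The CCAAT box is a promoter element bound by NF-Y. The windows are chr1:38046794-38047043 on the minus strand for POU3F1, chr6:98834324-98834573 on the plus strand for POU3F2, chr2:104853865-104854114 on the plus strand for POU3F3 and chrX:83508040-83508289 on the plus strand for POU3F4. Each is written 5′ to 3′ on the gene's strand, and capitals mark CCAAT or, for a box on the other strand, ATTGG. The POU3F4 window lies within ENSG00000279437.
POU3F1: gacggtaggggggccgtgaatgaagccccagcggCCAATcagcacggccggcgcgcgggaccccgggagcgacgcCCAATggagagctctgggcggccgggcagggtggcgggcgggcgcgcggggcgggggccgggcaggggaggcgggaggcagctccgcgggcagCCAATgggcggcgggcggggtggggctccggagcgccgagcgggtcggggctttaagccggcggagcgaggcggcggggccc
POU3F2: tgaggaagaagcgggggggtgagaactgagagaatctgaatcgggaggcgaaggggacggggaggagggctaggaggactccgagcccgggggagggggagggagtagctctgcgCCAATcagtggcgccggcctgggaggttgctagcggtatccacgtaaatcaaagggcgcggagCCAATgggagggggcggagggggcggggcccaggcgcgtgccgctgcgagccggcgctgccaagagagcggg
POU3F3: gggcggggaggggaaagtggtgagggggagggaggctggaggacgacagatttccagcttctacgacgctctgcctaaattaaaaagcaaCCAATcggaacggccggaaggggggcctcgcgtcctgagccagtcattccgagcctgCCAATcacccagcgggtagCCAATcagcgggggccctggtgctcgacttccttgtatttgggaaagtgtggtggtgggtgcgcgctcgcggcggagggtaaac
POU3F4: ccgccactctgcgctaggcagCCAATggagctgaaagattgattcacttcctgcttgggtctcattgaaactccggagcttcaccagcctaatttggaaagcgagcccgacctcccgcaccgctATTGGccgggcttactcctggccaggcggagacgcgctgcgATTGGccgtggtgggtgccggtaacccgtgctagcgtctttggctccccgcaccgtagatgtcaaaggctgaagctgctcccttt

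POU3F1, POU3F3 and POU3F4 each held 3 matches to CCAAT on either strand, and POU3F2 held 2. Over 35116 RefSeq promoter windows of the same length, 32.01% held at least 1 match, 9.53% at least 2 and 2.93% at least 3. The match nearest the start began 82 bases before it in POU3F1, 72 in POU3F2, 84 in POU3F3 and 85 in POU3F4. The POU3F4 promoter was the one with matches on the strand opposite the gene. None of the 4 windows held TATAAA, the octamer ATGCAAAT or the SOX motif ACAAAG on either strand, which 10.72%, 1.63% and 13.72% of windows held. Their G and C content was 80.8% in POU3F1, 69.2% in POU3F2, 62.0% in POU3F3 and 60% in POU3F4, against a median of 58.0%. A match is a description of the letters and no evidence of binding.

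Total counts ran from 1407832 to 2143871 in the 12 day 0 libraries and from 2228736 to 3726227 in the 12 day 14 libraries, and values below are counts per 1000000 of those totals (CPM). As a check of the labels, counts under BRAT1 at day 14 ran from 185.8 to 317.1 CPM in the control libraries, 7.66 to 16.9 in knockout line 1 and 71.2 to 86.8 in knockout line 2 (log2 fold change -2.47, SE 0.571, edgeR adjusted p 0.0111). At day 0 they were at most 6.32 CPM in any library, so the label could not be checked there. The 2 features opposite the 6 pluripotency markers, TCF19 and LRRC2, summed to 482.0 to 779.0 CPM in the day 0 libraries and to at most 1.88 at day 14. The markers' own names gave 25.3 to 132.0 CPM at day 0 and 46.5 to 117.0 at day 14. That sum hides changes both ways: of 4 own names tested between days, 1 rose and 2 fell in each genotype. In controls LIN28A rose from 11.2 to 61.8 CPM, while POU5F1 fell from 37.3 to 2.58 and TDGF1 from 4.39 to 0. Neural progenitor markers under their own names summed to 21.5 to 116.0 CPM at day 0 and to 170.0 to 601.0 at day 14. At day 14, 11408 features passed the filter on low counts, and 2474 of them (21.7%) differed between knockout and control at an adjusted p under 0.05, 1256 higher and 1218 lower. Tests used edgeR's quasi-likelihood fit with Benjamini-Hochberg adjustment over all features tested, and p-values count the 3 libraries of 1 line as separate replicates while only 2 lines stand behind a genotype. In bulk RNA a change in the number of cells of a type and a change in RNA per cell cannot be told apart.

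The locus of POU3F4 carried by far the most counts of the family and was higher in BRAT1 knockout cells at day 14 under both names. Most of its counts sat under ENSG00000279437. POU3F1, POU3F2 and POU3F3 have no annotated opposite feature in which reads of the other strand would be counted. Their levels therefore cannot be set like for like against those of the POU3F4 locus. Counts under ENSG00000279437 rose from 275.8 ± 14.3 CPM in control libraries to 1297 ± 97.7 in knockout libraries (SD, n = 6 each), and counts under POU3F4 rose from 6.29 ± 3.98 to 25.9 ± 8.43 CPM (n = 6 each). Neither POU3F2 nor POU3F3 passed the test. Of the 4 members tested, 2 passed, both higher, and 21.7% of all features tested passed in either direction, 1256 of 11408 of them higher. The 2 that passed are the names of 1 overlapping locus, so they may not be separate results.

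Replicates A, B and C of control line 1 held 265.3, 274.7 and 273.9 CPM under ENSG00000279437, and those of control line 2 held 265.7, 271.5 and 303.8. Knockout line 1 held 1203, 1326 and 1212 CPM, and knockout line 2 held 1382, 1227 and 1433. The groups did not overlap, and the lowest knockout library stood far above the highest control library. The log2 fold change of 2.22 ± 0.112 (SE) had an edgeR adjusted p of 2.5e-14, with 6 of 6 knockout libraries higher, the 2nd smallest p of the 11408 features tested. Knockout line means were 4.45 to 4.97 times control line means over the 4 pairings of lines. No difference between lines of 1 genotype passed at this feature, with log2 differences of line 2 over line 1 of 0.04 (SE 0.143, adjusted p 1.0) and 0.06 (SE 0.142, adjusted p 0.94). In those line comparisons 0.107% and 1.23% of 15000 features passed, and no member did.

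Under POU3F4 itself, control line 1 held 14.12, 3.46 and 6.46 CPM and control line 2 held 4.37, 5.3 and 4.04. Knockout line 1 held 33.1, 27.7 and 20.7 CPM and knockout line 2 held 15.4, 20.7 and 37.5. The lowest knockout library lay just above control line 1 replicate A, which stood apart from the other control libraries, so the groups did not overlap. The log2 fold change of 2.01 ± 0.348 (SE) had an edgeR adjusted p of 0.000106, with 6 of 6 knockout libraries higher, the 350th smallest p. Line ratios ran from 3.06 to 5.95. Both calls were lost when all 24 libraries shared 1 fit (adjusted p 0.125 for ENSG00000279437 and 0.361 for POU3F4, over alternatives from 1.36e-96 to 0.125 and from 5.54e-07 to 0.361), at nearly the same fold changes of 2.22 and 2.02.

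**Figure D1:**
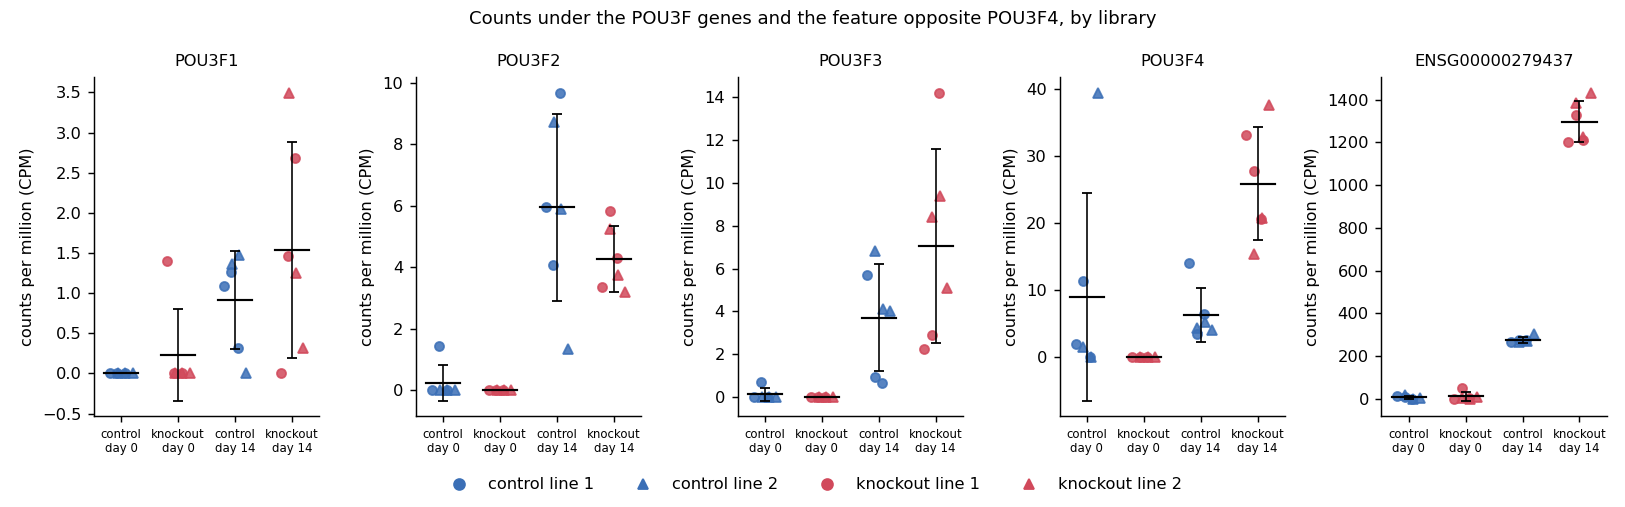
CPM of total counts (vertical axes, linear, a scale for each panel) for the 5 members in the 24 libraries, grouped by genotype and day; circles are line 1, triangles line 2, horizontal bars the mean and whiskers the SD of 6 libraries. At day 14 the knockout libraries lie between 1203 and 1433 CPM for ENSG00000279437, above all control libraries, while POU3F1, POU3F2 and POU3F3 overlap between genotypes.

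Set per kilobase of exon at day 14, ENSG00000279437 stood at 86.4 ± 4.47 CPM per kb in controls and 406.4 ± 30.6 in knockouts. POU3F4 followed at 1.63 ± 1.03 and 6.69 ± 2.18 CPM per kb, POU3F2 at 1.22 ± 0.624 and 0.877 ± 0.219, POU3F3 at 1.21 ± 0.812 and 2.30 ± 1.48, and POU3F1 at 0.42 ± 0.278 and 0.703 ± 0.618 (SD, n = 6 each). Below ENSG00000279437, each neighbouring pair in this order of levels lay within 1 SD of each other in controls. In knockouts POU3F3 ranked above POU3F2, and POU3F4 stood apart from POU3F3 by more than 1 SD. ENSG00000279437 lay above every other member in both genotypes by more than the spread. It is the 1 member that counts the strand opposite a POU3F gene, so this order does not rank the 4 genes' loci.

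The division of counts at the POU3F4 locus did not differ detectably between genotypes. Of the counts under both names in a control library at day 14, those under POU3F4 made up 5.05%, 1.24% and 2.3% in line 1 and 1.62%, 1.91% and 1.31% in line 2. In knockout libraries they made up 2.68%, 2.05% and 1.68% in line 1 and 1.1%, 1.66% and 2.55% in line 2. The 95% Wilson interval, which covers counting error only, was 3.87% to 6.57% in control line 1 replicate A, the highest library, and 0.821% to 1.48% in knockout line 2 replicate A, the lowest. The means were 2.24% ± 1.43 and 1.95% ± 0.597 (SD, n = 6 each), a difference of -0.288 percentage points with a two-sided exact permutation p of 0.794. The sign of that difference turned without control line 1 (0.338) and without its replicate A alone (0.274). Summed per line, the shares were 2.98% of 2781 counts in control line 1, 1.64% of 2616 in control line 2, 2.08% of 11624 in knockout line 1 and 1.81% of 12599 in knockout line 2. As a percentage of the counts under ENSG00000279437, counts under POU3F4 were 2.31% ± 1.53 in controls and 1.99% ± 0.621 in knockouts, beside the 1.65% and 2.39% of the 407 other pairs.

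**Figure D2:**
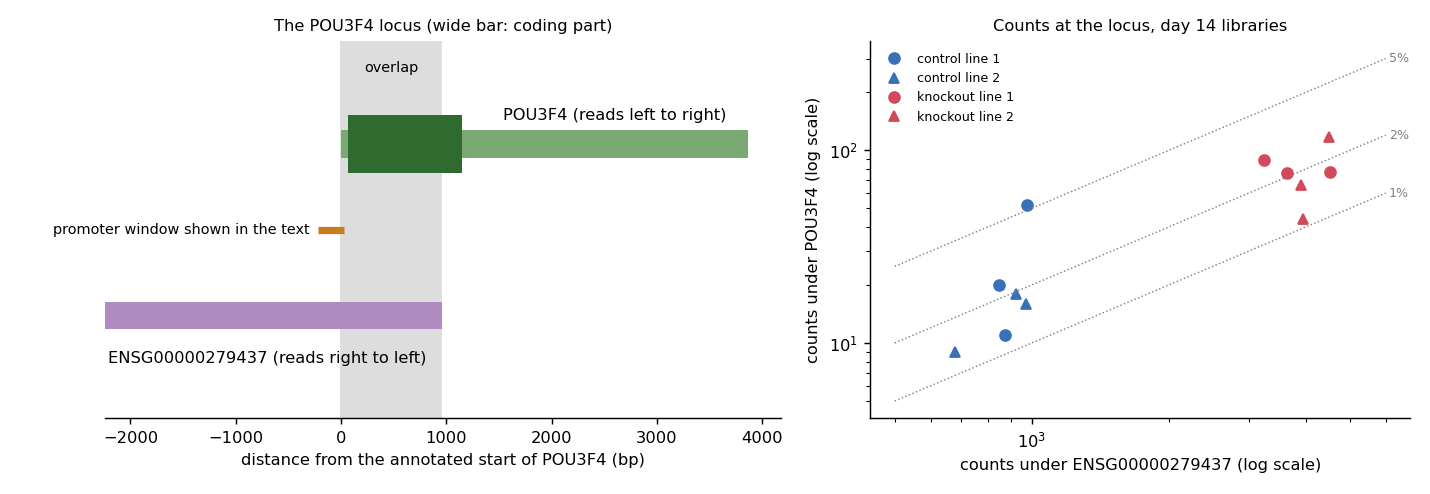
Left, the POU3F4 locus in bp from the annotated start of POU3F4, with the coding part as a wide bar, the overlap of the 2 features shaded and the promoter window in orange. Right, counts under POU3F4 against counts under ENSG00000279437 in the 12 day 14 libraries, both axes logarithmic, with dotted lines at 1%, 2% and 5%; 11 of the 12 libraries lie between 1% and 3%, and control line 1 replicate A lies at the 5% line.

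POU3F2 and POU3F3 carried few counts, and their levels in control and knockout cells overlapped at day 14. Under POU3F2, control line 1 held 5.97, 4.09 and 9.69 CPM, control line 2 held 8.73, 5.89 and 1.35, knockout line 1 held 3.35, 5.84 and 4.29, and knockout line 2 held 5.25, 3.76 and 3.18. The knockout values fell within the control range, and the fitted log2 difference was -0.50 ± 0.477 (SE), with an edgeR adjusted p of 0.493. The 120 and 78 counts summed over controls and knockouts gave a ratio of 0.682 with an interval of 0.506 to 0.914 for counting error only, at 95% confidence.

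Under POU3F3, control line 1 held 5.7, 0.944 and 0.646 CPM and control line 2 held 6.82, 4.12 and 4.04. Knockout line 1 held 2.23, 2.92 and 14.2 CPM and knockout line 2 held 8.4, 9.41 and 5.09. The groups overlapped, 3 knockout libraries lay above the highest control library, and the fitted log2 difference was 0.87 ± 0.549 (SE), with an edgeR adjusted p of 0.272. With the wrong-strand percentage of each library as a covariate, the estimate turned to -0.09 (adjusted p 0.96). The genotypes differ in the mean of that percentage, with overlapping ranges, as given above, and its part in the POU3F3 values was not otherwise tested.

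POU3F1, at 19 counts over the 6 control libraries and 29 over the 6 knockout libraries at day 14, did not pass the filter. Its levels were 0 to 1.47 CPM (median 1.17) in controls and 0 to 3.5 CPM (median 1.36) in knockouts. A difference was not detectable at this depth (log2 fold change 0.57, SE 1.12, adjusted p 0.776 without the filter).

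**Figure D3:**
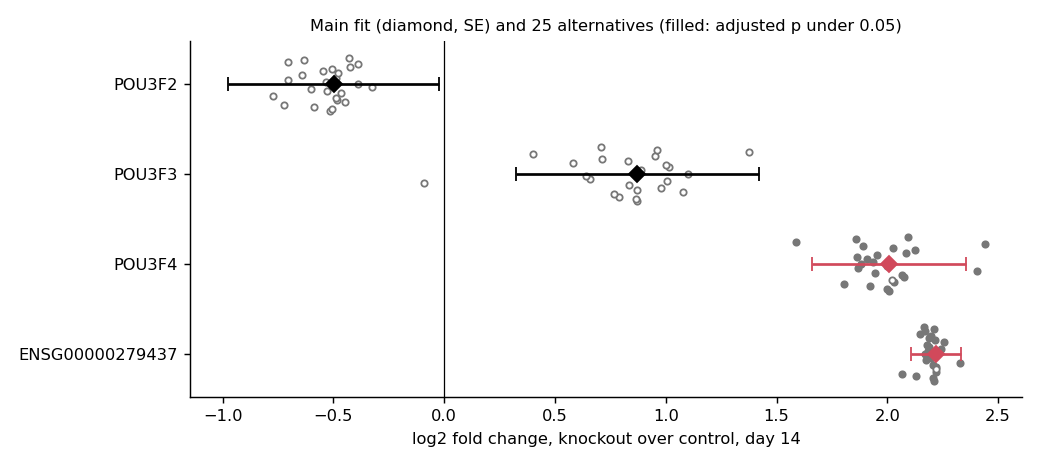
Log2 fold change of knockout over control at day 14 (horizontal axis) for the 4 members tested; diamonds with whiskers are the fit and its SE, and small circles are 25 alternatives, filled where the adjusted p is under 0.05. POU3F4 and ENSG00000279437 pass in 24 of 25 alternatives with values from 1.59 to 2.44 and from 2.07 to 2.33, and POU3F2 and POU3F3 in none.

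In stem cells the family carried few counts in both genotypes. At day 0, 4832 features passed the filter and none (0%) differed between knockout and control by edgeR or DESeq2, with 99 and 163 at an unadjusted p under 0.05. Under ENSG00000279437, control line 1 held 12.6, 7.81 and 0 CPM, control line 2 held 20.5, 0 and 4.15, knockout line 1 held 1.4, 52.8 and 6.06, and knockout line 2 held 5.22, 0 and 8.84. These ranges overlapped (log2 fold change 0.72, SE 1.18, adjusted p 1.0). POU3F4 was unevenly spread: control line 1 held 1.94, 11.4 and 0 CPM and control line 2 held 1.54, 0 and 39.4, with 57 of the 80 control counts in line 2 replicate C. All 6 knockout libraries held 0 of 10788285 counts, which allows up to 0.278 CPM for the group by counting error only. POU3F1 had 2 counts, POU3F2 2 and POU3F3 1 over all 12 day 0 libraries, each in a single library.

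At day 0 the division at the chromosome X locus varied widely between control libraries. In the control libraries with at least 20 counts there, counts under POU3F4 made up 13.3% of 30 (95% Wilson interval 5.31 to 29.7) and 59.3% of 27 (40.7 to 75.5) in line 1 replicates A and B. They made up 6.98% of 43 (2.4 to 18.6) and 90.5% of 63 (80.7 to 95.6) in line 2 replicates A and C. In the 1 knockout library with as many, line 1 replicate B, they made up 0 of 92, which allows up to 3.26%, a limit above the 1.1% to 2.68% of the knockout libraries at day 14. The interval of day 0 control line 2 replicate A also overlaps those of most day 14 control libraries. That of control line 1 replicate A overlaps only the 3.87% to 6.57% of day 14 control line 1 replicate A. The intervals of day 0 control line 1 replicate B and control line 2 replicate C lie above those of all day 14 control libraries.

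With neural differentiation, counts under POU3F2, POU3F3 and ENSG00000279437 rose in both genotypes. In controls 4699 of 10971 features (42.8%) passed between day 14 and day 0, 3115 of them higher. In knockouts 5077 (46.3%) passed, 3265 of them higher. Among the 4 members tested, 3 rose in controls and 4 in knockouts. POU3F2 and POU3F3 had almost no counts at day 0 and passed the filter through day 14, so a fall could hardly be seen. POU3F4, with 0 counts in the day 0 knockouts, could not fall in knockouts either. In controls the log2 fold changes were 4.06 for POU3F2 (SE 0.948, edgeR adjusted p 0.00115), 4.21 for POU3F3 (SE 1.06, adjusted p 0.00225) and 4.57 for ENSG00000279437 (SE 0.815, adjusted p 0.000126).

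The base of these rises was a handful of reads. POU3F2 went from 2 summed counts to 120 in controls, a ratio of 31.9 with a counting interval of 8.63 to 266.0, and POU3F3 from 1 to 74, a ratio of 39.3 with an interval of 6.84 to 1570. In knockouts POU3F2 was at least 15.3-fold and POU3F3 at least 26.9-fold higher at day 14, against a floor of 3 counts over the 6 day 0 libraries (edgeR adjusted p 0.000145 and 5.18e-05). In controls the calls of POU3F2 and POU3F3 were lost with counts summed per line (adjusted p 0.0714 and 0.0696) and without control line 2 (0.0874 and 0.2). ENSG00000279437 went from 83 to 5271 summed counts in controls, a ratio of 33.7 (27.1 to 42.4), and from 132 to 23753 in knockouts, a ratio of 106.0 (89.2 to 127.0), with adjusted p 4.84e-06 in knockouts.

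POU3F4 rose with day in knockouts, from 0 to 470 summed counts or at least 92.1-fold (edgeR adjusted p 3.63e-05). In controls, 80 counts at day 0 and 126 at day 14 gave a fitted log2 change of -0.95 ± 0.88 (SE; edgeR adjusted p 0.408), which turned to 0.50 without day 0 control line 2 replicate C. The change with day differed between genotypes in 161 features (1.47%), and POU3F4 was the 1 member among them (adjusted p 0.0047). Its fitted difference rests on the day 0 knockout libraries, all at 0, and its size is no bound. That call was lost with counts summed per line (adjusted p 0.0559) and without control line 2 (0.0736), knockout line 1 (0.148) or knockout line 2 (0.0814). The interaction of ENSG00000279437 was 1.65 (SE 1.05, adjusted p 0.5), that of POU3F2 2.17 (SE 1.35, adjusted p 0.523) and that of POU3F3 2.72 (SE 1.73, adjusted p 0.514). RLE scaling, in place of TMM, moved the median log2 change of all features with day from 0.6 to 0.829 in controls and from 0.651 to 1.04 in knockouts, the share of calls that were higher from 64.3% to 74.6% in knockouts, and that share in the interaction from 38.5% to 52.1%.

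Features starting within 100 kb of a member were followed on either strand. PANTR1, a long noncoding RNA that starts 2328 bp from POU3F3 and runs away from it, had few counts at day 14. Control line 1 held 8.15, 4.09 and 3.88 CPM, control line 2 held 3.27, 2.36 and 1.35, knockout line 1 held 7.07, 6.57 and 5.1, and knockout line 2 held 13.3, 3.45 and 12.4. The genotypes overlapped (log2 fold change 0.99, SE 0.478, edgeR adjusted p 0.143). PANTR1 rose with day in controls (6.10, SE 1.18, adjusted p 0.000168) and in knockouts (5.34, SE 0.973, adjusted p 6.68e-05), as POU3F3 did. It had 0 counts over the 6 day 0 control libraries and 1 over the 6 day 0 knockout libraries. The sizes therefore depend on the fit's prior count, and PANTR1 passed the filter through day 14. LINC01159, 17084 bp from the start of POU3F3, did not pass between genotypes (-0.11, SE 0.501, adjusted p 0.907).

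Near POU3F1, UTP11, a ribosome biogenesis factor gene on the other strand, rose in knockouts at day 14 (1.18, SE 0.36, edgeR adjusted p 0.0185). With the wrong-strand covariate this call was lost at a similar estimate and a larger SE (1.265, SE 0.489, edgeR adjusted p 0.0908). INPP5B, a phosphoinositide phosphatase gene, and SF3A3, a splicing factor gene, did not pass (adjusted p 0.421 and 0.982). MIR3659HG, which starts 520 bp from POU3F1 on the other strand, had 30 counts over the 24 libraries. ENSG00000223589, FHL3, LINC02786, MIR3659 and RNU6-510P had 11 to 108. Near POU3F2, ENSG00000283010 had 18, and near POU3F3, ENSG00000269707, HMGB3P11 and LINC01114 had 1 to 23.

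The features whose day 14 levels most resembled each member's were ranked by Pearson correlation of log2 CPM over the 12 day 14 libraries, out of 11757 features. The libraries share their genotype difference and lines, so these are descriptions. For ENSG00000279437 they were FEZF1-AS1 (r = 0.989), annotated opposite the forebrain regulator gene FEZF1, LYRM2 (0.988), opposite ANKRD6, and AFDN-DT (0.984). FEZF1-AS1 went from 16.7 ± 3.04 CPM in controls to 391.3 ± 74.6 in knockouts (n = 6 each). For POU3F4 they were LINC-PINT (0.983), RABL2A (0.947) and ZNF766 (0.94), of which LINC-PINT, a long noncoding RNA, went from 9.81 ± 4.09 to 33.4 ± 7.51 CPM. For POU3F3 they were RNF138 (0.889), TATDN3 (0.879) and ZNF131 (0.869), and for POU3F2 C2CD2L (0.851), OLA1P3 (0.841) and CENPB (0.827). Between the members themselves, POU3F4 and ENSG00000279437 had r = 0.879, and the other pairs lay between -0.262 and 0.423.

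Other genes of the POU class and of the programmes in which POU3F factors act were read under their own names and under features opposite them. Among other POU genes, 3 of 13 were tested under their own name and none passed, including POU2F2 of lymphoid cells (1.19, edgeR adjusted p 0.102) and the pluripotency factor POU5F1 (0.81, adjusted p 0.324). ENSG00000271776, opposite the sensory neuron factor POU4F1, fell from 435.7 ± 31.7 to 49.8 ± 25.7 CPM (n = 6 each), a log2 difference of -3.15 ± 0.274 (SE) with an edgeR adjusted p of 1.25e-06. At day 14 the features opposite POU4F1 and opposite POU3F4 moved in opposite directions. The POU4F1 feature kept its call with the wrong-strand covariate (adjusted p 0.00242).

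SOX genes of neural progenitors, which pair with POU factors on DNA, were tested under their own names, and 5 of 7 rose, where 21.7% of all features tested passed, 1256 of 11408 of them higher. The median log2 fold change of the 7 was 1.41 beside 0.0735 over all features tested. SOX1 rose from 3.73 ± 2.11 to 13.6 ± 5.75 CPM (adjusted p 0.0029), SOX21 from 8.67 ± 1.45 to 23.6 ± 9.11 (adjusted p 0.000861) and SOX3 from 4.45 ± 1.75 to 14.7 ± 10.5 (adjusted p 0.00375). SOX11 and SOX9, named after their values were seen, also rose, while SOX4 was at 0.73 (adjusted p 0.236) and SOX2 at -0.02 (adjusted p 0.98). With the wrong-strand covariate 0 of the 7 passed, and their median was 0.977 beside -0.00247 over all features tested. In that fit 1363 features passed instead of 2474, 725 of them higher. The 1 tested feature opposite a SOX gene, ENSG00000283480 opposite SOX4, was at 0.64 (adjusted p 0.111).

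Of the 12 neurogenic genes that act with POU3F2, 6 were tested under their own name, and 3 rose and 2 fell, beside 1256 higher and 1218 lower of all 11408 features tested (21.7% in either direction). Their median log2 fold change was 1.43, beside 0.0735 over all features. Named after their values were seen, HES5 and HES6, genes of the HES family, were among those that rose, and NHLH1, a neuronal basic helix-loop-helix factor, fell. NEUROD1, which drives neuronal maturation, fell from 12.1 ± 3.64 to 0.853 ± 1.11 CPM (adjusted p 3.68e-05). Of the features opposite these genes, 2 were tested and both rose, among them ENSG00000284600, opposite the neuronal factor gene MYT1L, from 3.94 ± 2.51 to 27.3 ± 10.3 CPM (adjusted p 5.5e-06). With the covariate, 1 of 6 own names rose and 2 fell, and both opposite features still passed, in a fit where 1363 features passed, 725 of them higher. Neuron markers under their own names summed to 22.4 to 57.0 CPM in control libraries and 75.1 to 210.0 in knockout libraries at day 14. Neural progenitor markers summed to 170.0 to 297.0 and 390.0 to 601.0. Of the 5 progenitor markers tested, 3 rose, and most of the higher sum was NES (108.5 to 270.9 CPM) and SIX3 (8.15 to 84.6). PAX6 at 0.34 (edgeR adjusted p 0.107) and SOX2 at -0.02 (adjusted p 0.98) did not pass. Features opposite the progenitor markers had the lower median sum in knockouts, with overlapping ranges of 125.0 to 198.0 CPM in control libraries (median 182.0) and 23.0 to 156.0 in knockout libraries (median 88.4). That sum was mostly ELP4, opposite PAX6, at 164.4 ± 31.5 and 76.4 ± 56.7 CPM, which did not pass (edgeR adjusted p 0.143). Of the 3 features tested, 1 rose and 0 fell. The 1 that rose was ENSG00000234921, opposite LHX2, from 1.08 to 7.19 CPM (edgeR adjusted p 0.00558). No matched feature lay opposite a neuron marker. The part of cell composition in these values was not tested.

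Of 8 hypothalamic genes that act with or after POU3F2, 2 were tested. ARNT2, a partner of SIM factors, rose from 9.02 ± 3.9 to 20.6 ± 10.1 CPM (adjusted p 0.015), and SIM2 was at 0.58 (adjusted p 0.0513). ENSG00000270919, opposite ARNT2, rose from 65.4 ± 11.9 to 98.1 ± 23.5 CPM (adjusted p 0.0151). Both calls were lost with the covariate. ARNT2 went from 1.16 (SE 0.342) to 0.37 (SE 0.406, edgeR adjusted p 0.625). ENSG00000270919 stayed near its value, at 0.57 (SE 0.168) and 0.54 (SE 0.212, edgeR adjusted p 0.0963).

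**Figure D4:**
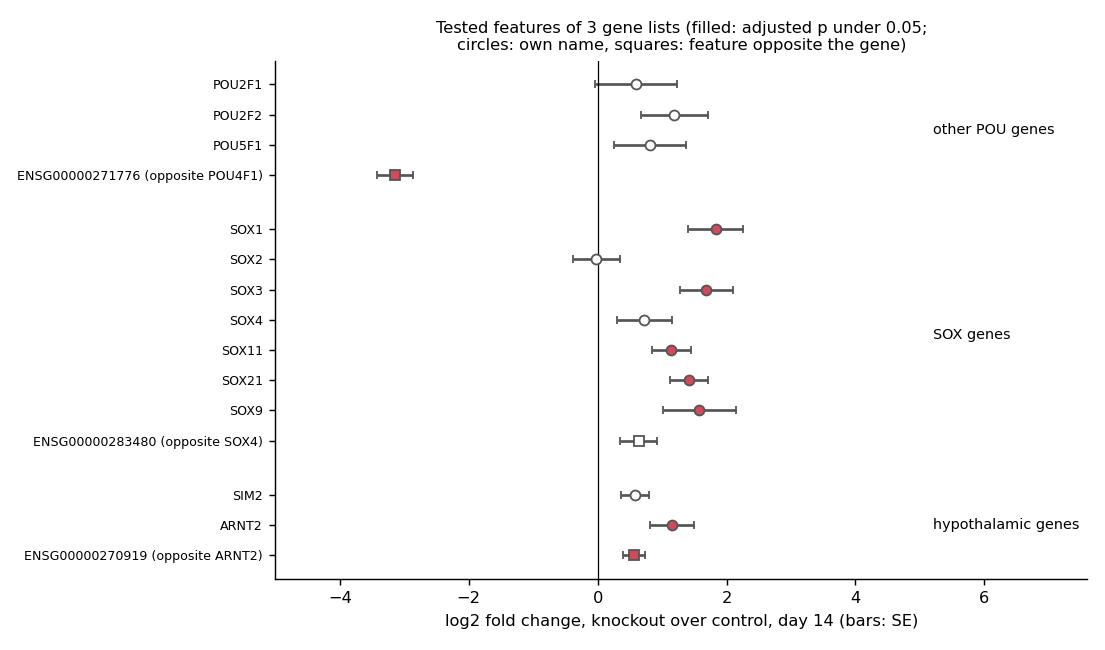
Log2 fold change of knockout over control at day 14 (horizontal axis, whiskers SE) for the tested features of 3 gene lists (other POU, SOX and hypothalamic genes); circles are genes under their own names, squares features opposite a gene, filled where the edgeR adjusted p is under 0.05. ENSG00000271776, opposite POU4F1, lies at -3.15, and 5 of 7 SOX genes lie above 0 and filled.

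The Schwann cell and myelin genes that act with POU3F1 went the other way: 3 of 6 tested fell and none rose, beside 1218 of 11408 features that fell, with a median of -1.39 beside 0.0735. SOX10, the glial and neural crest factor, fell from 69.4 ± 12.1 to 9.72 ± 7.02 CPM (adjusted p 0.000566). EGR2, a myelination factor gene, fell from 5.26 ± 2.44 to 0.805 ± 1.97 CPM (adjusted p 0.0294). With the covariate the same count, 3 of 6, fell, in a fit where 1363 features passed instead of 2474. Neural crest markers under their own names, a list that shares SOX10, summed to 96.0 to 149.0 CPM in controls and 52.4 to 112.0 in knockouts. That sum does not stand for the list, in which 1 of 4 tested rose and 2 fell. SOX10 and TFAP2B fell (TFAP2B from 10.4 to 0.464 CPM), while NGFR rose from 26.2 to 53.5 CPM (edgeR adjusted p 0.00385). TFAP2A, at 12.6 and 15.2 CPM, did not pass (edgeR adjusted p 0.696). The part of these markers in the Schwann cell and myelin values was not tested.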

How the data were processed

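RNA from 24 H7 cultures was extracted with Trizol and made into Click-Seq libraries, per the labels' protocols. The submitters' processing notes name bcl2fastq 2.20.0, STAR 2.7.9a, featureCounts (Subread 2.0.1), DESeq2 1.34.0, R 3.5.1 and GRCh38. The deposited values are raw counts per feature, with the annotation release and strand setting not given in the sources used here. Of 61248 features, 57065, holding 90.18% of all counts, matched GENCODE 29.

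Counts were fitted with edgeR 4.0.16 in R 4.3.3 (quasi-likelihood, TMM, filterByExpr, Benjamini-Hochberg), with limma 3.58.1 and DESeq2 1.42.0 as alternatives and a check on simulated counts. Knockout and control were compared within each day; day contrasts and the interaction used all 24 libraries; lines were compared at day 14. Exact permutation tests used SciPy 1.17.1. Alternatives were DESeq2, RLE scaling, no filter, thinned counts, counts summed per line, line as a random effect, a replicate block, all libraries in 1 fit, the wrong-strand percentage as a covariate, and leaving out each library or line. Motifs were searched on both strands. A feature counted as opposite a gene when exons overlapped by at least 100 bases on the other strand. Where a group held no counts, a floor of 3 counts over the group was used.

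Members, neighbours within 100 kb, the 3 most correlated features per member (mean of at least 2 CPM) and 5 gene lists (other POU, SOX, neurogenic, hypothalamic, Schwann cell) were followed, and from each list the 3 smallest adjusted p-values named; some list members are not reported here. Marker lists covered pluripotent, progenitor, neuron, neural crest, otic and melanocyte genes. Members and lists were chosen with earlier results of these data known. Otic markers under their own names summed to 61.9 to 234.0 CPM in day 14 controls and 195.0 to 468.0 in knockouts, and the features opposite them to 350.0 to 529.0 and 1.82 to 46.9. Melanocyte markers under their own names summed to 100.0 to 197.0 and 60.4 to 233.0. These sums do not stand for their lists as a whole. The otic sum was mostly OTX1, at 152.4 ± 52.9 CPM in controls and 307.7 ± 99.2 in knockouts (SD, n = 6 each). DLX5 also rose, from 0.103 to 24.0, PAX8 went from 4.45 to 0.384, and TBX1 and TBX18 had few counts. The opposite sum was mostly PAX8-AS1 (455.1 and 25.1), and the melanocyte sum mostly PMEL (129.4 and 95.9).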

Additional observations from a re-analysis of the deposited data

Results flagged for a closer look

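Within the groups of 6 libraries, a library stood apart from the others of its group in 8 of 18 groups looked at, by a gap above Dixon's 95% critical value of 0.625 of the group's range. In 3 of them the rest of the group was at 0, so that any count at all sets a library apart and the critical value says nothing: day 0 knockout line 1 replicate A at 1.403 CPM for POU3F1, and day 0 control line 1 replicate B at 1.421 CPM for POU3F2 and at 0.7103 CPM for POU3F3. The other 5 follow, where chance sets apart about 1 in 20 groups. For POU3F4, day 14 control line 1 replicate A was at 14.12 CPM and day 0 control line 2 replicate C at 39.41 CPM. For ENSG00000279437, day 14 control line 2 replicate C was at 303.8 CPM, beside 274.7 in the next library, and day 0 knockout line 1 replicate B at 52.77 CPM, beside 8.84. In day 14 control line 1 replicate A, counts under POU3F4 made up 5.053% of the locus, beside 2.304% in the next control library.

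The change of POU3F4 with day differed between genotypes by 9.769 on the log2 scale (edgeR adjusted p 0.0047). All 6 day 0 knockout libraries were at 0, so the size depends on the fit's prior count. Without day 0 control line 2 replicate C the value was 8.349 (adjusted p 0.0114).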

How the results depend on the processing

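POU3F4 and ENSG00000279437 kept their direction at day 14 in all 25 alternatives and their calls in 24. With all 24 libraries in 1 fit the values were 2.022 and 2.218, not past the threshold, and 241 features passed instead of 2474. The wrong-strand covariate gave 1363 features, leaving out control line 1 gave 1552 and leaving out control line 2 gave 1266. At day 0, 13 features passed with no filter on low counts, 116 with all 24 libraries in 1 fit, and 1 each with counts summed per line and without control line 1. Between days, 8739 features passed in knockouts with no filter, and 2926 in controls without control line 2. For the interaction, 502 passed by DESeq2, 792 with no filter, 28 with counts summed per line, 85 with counts thinned to the smallest total, 40 without control line 1, 16 without control line 2, 23 without knockout line 1 and 58 without knockout line 2. Leaving out 1 library at a time gave 91 to 259 features for the interaction, 10 to 25 between control lines and 109 to 289 between knockout lines. DESeq2 gave 358 between knockout lines. The cause of these shifts was not tested.

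Replicate letters did not pair the samples: same-letter libraries correlated at -0.225 to 0.136 in their deviations from group means, 1 of 18 pairs was above 0.1, and 3 of 12 libraries correlated best with their own letter. With a replicate block 2256 features passed at day 14, with POU3F4 at 2.076 (adjusted p 0.000238) and ENSG00000279437 at 2.219 (adjusted p 7.75e-12). POU3F1, POU3F2 and POU3F3 had 0 to 53 counts a library at day 14, which limits the differences that can be seen.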
